A study of Danio rerio with 8 samples.

Results

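Voltage-gated sodium and calcium channels and their auxiliary subunits are encoded here by 60 genes, the rows of the count table whose symbol starts with *scn* and a digit or with *cacna*, *cacnb* or *cacng*, out of 28802 gene rows. By name, they are 8 sodium channel alpha subunits, 6 sodium channel beta subunits, 18 calcium channel alpha 1 subunits, 6 alpha 2 delta subunits, 7 calcium channel beta subunits and 15 gamma subunits. They were measured by bulk RNA sequencing in hindbrain neurons sorted at 72 to 74 hpf from *phox2a* null larvae (*phox2a*-/-) and from siblings (*phox2a*+/+ or +/-, pooled). Both genotypes carried the driver Tg(-6.7Tru.Hcrtr2:GAL4-VP16), the motor neuron reporter Tg(isl1:GFP) and Tg(UAS:E1b-Kaede), on a *mitfa*-/- background that lacks pigment. Each library pooled cells of many larvae from 1 collection, and green cells were sorted whether they held Kaede or GFP. The study used 3 null alleles of *phox2a*, and the allele behind each library is not given in the sources used here. Genotypes were compared over 3 repeats, lettered A to C in the order of their run codes, with 1 null and 1 sibling library each, to ask how expression in this sorted pool stands when the extraocular motor neurons are missing. The paper reports motor neuron markers in the pool and *phox2a* expression in some adjacent medial vestibular neurons. The part of such cells in the levels below was not tested. Repeat D was left out of the comparison, as its null library held 735217 gene reads. The p-values below measure the spread between these collections.

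Sodium channel alpha subunits form the pore that carries the rising phase of the action potential, and beta subunits set its kinetics and place it in the membrane. Calcium channel alpha 1 subunits form the pore for voltage-driven calcium entry. The L-type genes (*cacna1c*, *cacna1d*, *cacna1f*, *cacna1s*) couple excitation to transcription, contraction and ribbon synapse release, the P/Q-, N- and R-type genes (*cacna1a*, *cacna1b*, *cacna1e*) trigger transmitter release at presynaptic terminals, and the T-type genes (*cacna1g*, *cacna1h*, *cacna1i*) open near rest and favor rebound firing. Alpha 2 delta and beta subunits bring the pore to the membrane, and most gamma subunits escort AMPA-type glutamate receptors instead. Neurons of the vestibular hindbrain are known for high, regular firing rates that rest on such channels.

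The libraries of repeats A to C held 9579375 to 16992689 gene reads in null larvae and 18657956 to 19968857 in siblings. Levels are given in counts-per-million (CPM) of gene reads after TMM scaling. A count of 0 allows up to 3 reads, or 0.150 to 0.313 CPM of gene reads per library before this scaling, and this limit takes in counting error alone. A null library, that of repeat C, stood apart, with 62.4% of its listed reads not aligned, against 11.8% to 16.1% in the other 5 libraries, and a TMM factor of 0.518. On the mutated gene *phox2a*, reads numbered 1125, 2811 and 1015 in null libraries (here and below in the order A, B, C), against 9355, 9465 and 4151 in sibling libraries. After TMM scaling, its level was 59.5, 168 and 205 CPM in null libraries and 403, 405 and 200.1 CPM in sibling libraries. On this scale the genotypes overlapped, and the null library of repeat C was not below its sibling library (log2 fold change -1.22, standard error 0.62, unadjusted p = 0.084, adjusted p = 1.00 by edgeR). The TMM factor of 0.518 raises the values of that null library. By gene reads alone, every null library lay below every sibling library. In repeat C, *phox2a* took 1015 of 9579375 gene reads in the null library and 4151 of 18657956 in the sibling library. Whole-gene counts include transcripts that carry the lesion, and in this bulk measurement fewer cells of a type and less RNA per cell cannot be told apart. All 10 genes listed as neuronal markers had reads, and their summed level after TMM scaling was 19747 to 27474 CPM in null libraries and 14055 to 19455 CPM in sibling libraries. The highest sum was that of the null library of repeat C, which the factor of 0.518 raises. The median log2 fold change of these 10 genes was 0.13 on this scale and -0.32 by gene reads alone. Without the null library of repeat C it was -0.05. Summed markers of skeletal muscle were at 14.2 to 188 CPM in null libraries and 18.2 to 24.6 CPM in sibling libraries, those of heart at 0 to 0.807 and 0.0857 to 2.36 CPM, those of hair cells at 18.4 to 185 and 13.1 to 24.5 CPM, and those of photoreceptors at 0 to 18.3 and 0 to 10.9 CPM. Skin markers were at 0.657 to 4703 CPM in null libraries and 74.4 to 2899 CPM in sibling libraries, glial markers at 1077 to 1806 and 815 to 1343 CPM, and motor neuron markers at 1082 to 2458 and 1638 to 3353 CPM.

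Of the 60 channel genes, 56 had a read in these 6 libraries and 43 had enough reads for the edgeR quasi-likelihood test. The 4 without a read were *cacna1fa*, *cacng1a*, *cacng1b* and *cacng6a*, which are known from photoreceptors (*cacna1fa*) or skeletal muscle (*cacng1a*, *cacng1b*). At least 10 reads were counted in every library for 22 genes. Null libraries had reads on 51, 48 and 35 of the 60 genes, and the sibling libraries on 50, 42 and 42. Of the 43 tested genes, 11 (25.6%) had no read in the null library of repeat C, beside 33.8% of all 14824 genes tested. A further 2 rows in capitals fell outside the naming rule. *CACNA2D1* had 368, 566 and 19 reads in null libraries and 680, 676 and 495 in sibling libraries, and CACNA2D3 (1 of many) had 81, 0 and 0 reads in null libraries and 3, 0 and 106 in sibling libraries.

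No channel gene was called as different between *phox2a* null larvae and siblings. With the study's thresholds (adjusted p below 0.05, log2 fold change beyond 2 in size), edgeR called 0 of the 43 genes and 0% of all genes tested. At an unadjusted p under 0.05, edgeR again found 0 of the 43 channel genes, where 3.22% of all genes tested fell (2.46% higher and 0.762% lower in null larvae). DESeq2, the study's tool, called 0 of the 42 channel genes to which it gave an adjusted p, against 0.853% of all such genes. It gave no p at all to *scn4ba*, *scn4ab*, *cacng8a*, *cacna1fb* and *scn1laa* (log2 fold changes 3.22, 1.91, 1.80, 1.84 and -0.65), so these were not among the 42. Its smallest adjusted p for a channel gene was 0.35. It placed 4 of 51 channel genes under an unadjusted p of 0.05 (5.66% of all genes), *cacna1c* as lower and *scn5lab*, *cacna1sb* and *scn12aa* as higher in null larvae. With the repeat as a block, edgeR again called 0 genes. DESeq2 with the block called 289 of the 23680 genes it fitted, against 129 genes without the block. Among the 56 channel genes in that blocked fit, it called 1 (*scn4ab*). Unlike the 42 above, the 23680 and the 56 include genes to which the blocked fit gave no adjusted p, such as *cacna1db*. Log2 fold changes were negative for 27 channel genes and positive for 16, and 62.8% of them were thus negative, against 55.9% of all genes tested. Their median was -0.43, beside -0.15 over all genes tested. With gene reads alone as the scale, these medians were -0.77 and -0.36, and all changes are to be read against the median of all genes. Without the null library of repeat C, the medians were -0.15 for the channel genes and -0.03 for all genes, and 27 of 47 channel genes were negative, beside 51.7% of all genes.

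The precision differed widely among the channel genes. The smallest standard error was that of *cacnb4b* (log2 fold change 0.12, standard error 0.44, 95% interval -0.89 to 1.13), so that for this gene differences past 2 on the log2 scale lay outside the interval. For the sparse gene *cacng7a*, the interval ran from -7.56 to 2.09. The missing calls therefore do not show equal levels.

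**Figure D1:**
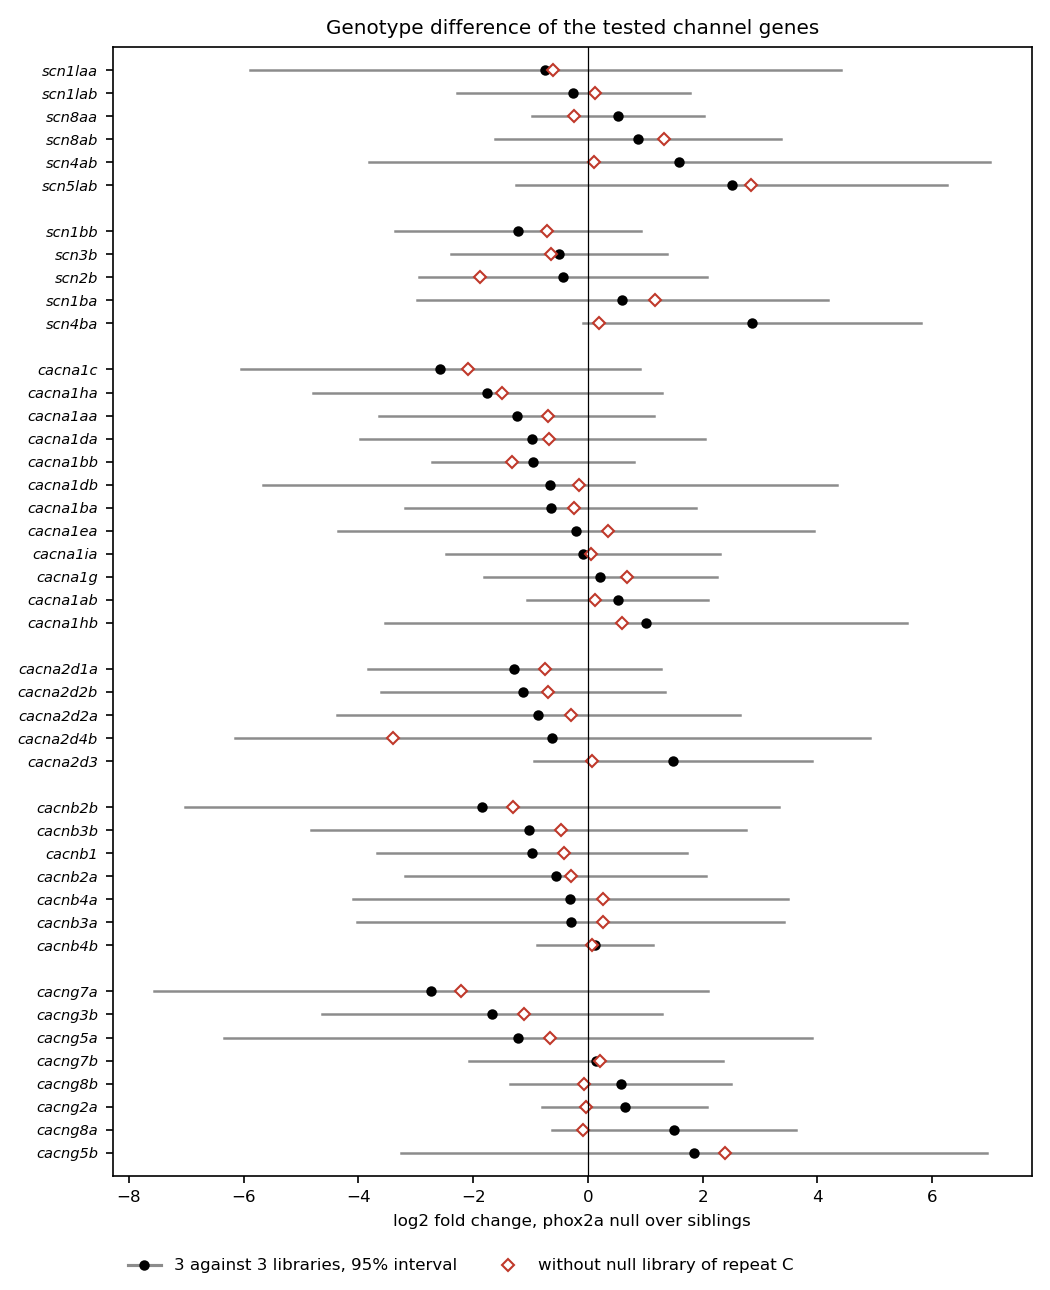
Log2 fold changes of the 43 tested channel genes, null over siblings, from 3 libraries against 3 (black points, 95% intervals of the edgeR fit as lines), grouped by subunit family, and the same without the null library of repeat C (open diamonds). Every interval spans 0, the narrowest being that of *cacnb4b* (-0.89 to 1.13), and *scn4ba* stands at 0.20 without that library, against 2.86 with it.

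Sodium channel alpha subunits summed to 186, 172 and 359 CPM in null libraries and to 195, 155 and 159.9 CPM in the sibling libraries. Of the 8 genes, 6 were tested, 4 with a positive and 2 with a negative log2 fold change, and 0 had an unadjusted p under 0.05. Their median log2 fold change was 0.70, and 0.12 without the null library of repeat C.

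*scn8aa* encodes the zebrafish counterpart of Nav1.6, the channel of the axon initial segment. Its level was 127, 77.6 and 315 CPM in null libraries, against 144, 85.6 and 133 CPM in the sibling libraries. The null libraries of repeats A and B lay within or just under the sibling range, and that of repeat C lay above it. The log2 fold change was 0.52 (standard error 0.65, adjusted p = 1.00 by edgeR), -0.25 without the null library of repeat C and -0.10 with gene reads alone as the scale, so that its direction was not stable.

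Its paralog *scn8ab* had 16.3, 32.1 and 4.03 CPM in null libraries and 10.8, 7.80 and 10.1 CPM in sibling libraries. Both null libraries of repeats A and B exceeded every sibling library, and that of repeat C was under all of them (log2 fold change 0.87, standard error 1.08, adjusted p = 1.00 by edgeR). Without the null library of repeat C, the log2 fold change was 1.33 (unadjusted p = 0.073, edgeR).

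*scn1lab*, a Nav1.1-type gene whose loss causes seizures in zebrafish, had 31.5, 29.7 and 8.67 CPM in null libraries and 28.7, 40.3 and 14.6 CPM in sibling libraries. The genotypes overlapped, and repeat C was the lowest within each genotype (log2 fold change -0.26, standard error 0.88, adjusted p = 1.00 by edgeR). Its paralog *scn1laa* was sparse and uneven, with 75, 87 and 16 reads in null libraries and 1, 484 and 0 reads in sibling libraries. A single sibling library therefore held nearly all sibling reads of *scn1laa*.

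The remaining alpha subunits belong to channels known from muscle and heart, or had few reads. *scn4ab*, a skeletal muscle type gene, had 4.34, 3.41 and 24.6 CPM in null libraries and 10.7, 0 and 0 CPM in sibling libraries. It had reads in all null libraries and in 1 of 3 sibling libraries, but the ranges overlapped (log2 fold change 1.59, standard error 2.36, adjusted p = 1.00 by edgeR). DESeq2 with the repeat as a block called *scn4ab* higher in null larvae, at a log2 fold change of 7.94 with an adjusted p of 0.011, the only channel gene that this fit called, and edgeR with the same block did not (unadjusted p = 0.16). DESeq2 without the block gave this gene no p. Without the block, the edgeR log2 fold change of *scn4ab* was 0.11 (unadjusted p = 0.97) when the null library of repeat C was left out and 10.45 (unadjusted p = 0.014, adjusted p = 1.00) when the sibling library of repeat A was, so that its value hung on single libraries. Summed skeletal muscle markers were 90.2, 14.2 and 188 CPM in the null libraries and 24.6, 21.0 and 18.2 CPM in the sibling libraries, and their part in this gene's level was not tested. For *scn4aa*, 41 reads came from the null library of repeat B and none from any other. *scn12aa* had 0, 74 and 2 reads in null libraries and none in sibling libraries, with an unadjusted DESeq2 p under 0.05 that rested on 1 library. *scn5lab*, related to the cardiac sodium channel, had 42, 279 and 17 reads in null libraries and 26, 5 and 54 reads in sibling libraries. It was higher in null larvae in 3 of 3 repeats after TMM scaling (log2 fold change 2.51, standard error 1.64, adjusted p = 1.00 by edgeR). By gene reads alone, repeat C was lower in null larvae for *scn5lab* (1.77 CPM, against 2.89 CPM in its sibling library). Of the 5 heart markers with a row, *nppa* had no reads and the other 4 summed to 2.36 CPM at most.

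Sodium channel beta subunits summed to 244, 179 and 735 CPM in null libraries and to 384, 186 and 331 CPM in sibling libraries. Of the 6 genes, 5 were tested, and *scn4bb*, with 6 reads in siblings over repeats A to C, was not. Their log2 fold changes ranged from -1.22 to 2.86.

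*scn1bb* had 114, 57.3 and 7.06 CPM in null libraries and 182, 67.6 and 166 CPM in sibling libraries. The null library was lower in 3 of 3 repeats, though the genotypes overlapped (log2 fold change -1.22, standard error 0.93, adjusted p = 1.00 by edgeR). *scn2b* had 43.1, 3.05 and 143 CPM in null libraries and 89.7, 56.0 and 108 CPM in sibling libraries. Its null libraries held 814, 51 and 708 reads, and the log2 fold change was -0.43 (standard error 1.09, adjusted p = 1.00 by edgeR), with -1.89 when the null library of repeat C was left out and 0.12 when that of repeat B was.

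*scn4ba*, whose mammalian counterpart is linked to resurgent sodium current in fast-firing neurons, had the smallest unadjusted p of all channel genes (0.055 by edgeR). It had 742, 464 and 2802 reads in null libraries and 1337, 469 and 194 reads in sibling libraries. After scaling, these were 39.2, 27.7 and 565 CPM, against 57.6, 20.1 and 9.35 CPM. The null library of repeat C held 89.4% of the null level, and the other null libraries lay within the sibling range. The log2 fold change was 2.86 (standard error 1.28, adjusted p = 1.00) with that library and 0.20 (unadjusted p = 0.80) without it. In *scn1ba*, the same library had 0 reads, where the null libraries of repeats A and B had 34.6 and 73.4 CPM and the sibling libraries 36.6, 13.6 and 21.2 CPM. *scn3b* had 13.5, 17.8 and 19.8 CPM in null libraries and 17.9, 28.96 and 25.9 CPM in sibling libraries, lower in null larvae in 3 of 3 repeats with overlapping ranges (log2 fold change -0.51, standard error 0.82). By gene reads alone, all its null libraries lay below all sibling libraries, as for 9.59% of all genes tested. On that scale it had 15.1, 19.7 and 10.2 CPM, against 20.8, 35.2 and 28.8 CPM (log2 fold change -0.92).

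**Figure D2:**
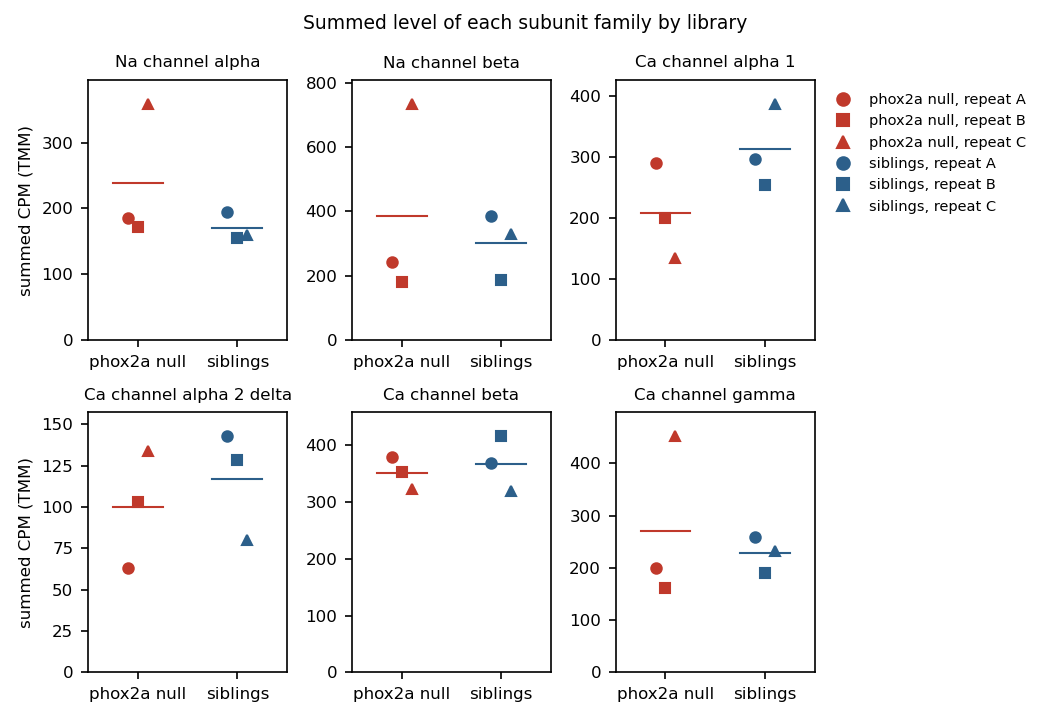
Summed TMM-normalized CPM of each subunit family (vertical axes, each starting at 0) in the null and sibling libraries, with a marker for each repeat and a line at the mean of 3 libraries. The null library of repeat C is the highest for sodium channel alpha (359 CPM), sodium channel beta (735 CPM) and calcium channel gamma subunits (453 CPM) and the lowest for calcium channel alpha 1 subunits (135 CPM). Its TMM factor of 0.518 raises its values. By gene reads alone, all channel genes together summed to 1516, 1289 and 1107 CPM in null libraries and to 1915, 1620 and 1679 CPM in sibling libraries. Every null library was thus below every sibling library on that scale. After TMM scaling, these totals overlapped between genotypes.

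Calcium channel alpha 1 subunits summed to 290.0, 199.7 and 135 CPM in null libraries and to 297, 254 and 388 CPM in sibling libraries, so the genotypes overlapped. Of the 18 genes, 12 were tested, 9 with a negative and 3 with a positive log2 fold change, and the median was -0.66. Without the null library of repeat C, 14 genes were tested, 7 of them negative, and the median was -0.05.

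Among the presynaptic types, the P/Q-type gene *cacna1aa* had 116, 62.0 and 2.82 CPM in null libraries and 115, 126 and 186 CPM in sibling libraries. On this scale, the null library of repeat A matched the lowest sibling library, and that of repeat C, with 14 reads, was far under all others. The log2 fold change was -1.24 (standard error 1.04, adjusted p = 1.00 by edgeR), and -0.69 without the null library of repeat C (unadjusted p = 0.11). By gene reads alone, all null libraries of *cacna1aa* were below all sibling libraries (129, 68.5 and 1.46 CPM, against 134, 153 and 207 CPM), as for 9.59% of all genes tested. The paralog *cacna1ab* had 41.1, 32.7 and 70.0 CPM in null libraries and 29.9, 27.03 and 43.6 CPM in sibling libraries, higher in null larvae in 3 of 3 repeats after TMM scaling but with overlapping ranges (log2 fold change 0.52, standard error 0.69, adjusted p = 1.00 by edgeR). By gene reads alone, repeat C was lower in null larvae (36.2 CPM, against 48.5 CPM in its sibling library), and the log2 fold change was 0.026.

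The N-type gene *cacna1bb* had 15.5, 12.8 and 26.0 CPM in null libraries and 37.6, 33.4 and 34.7 CPM in sibling libraries. All null libraries were below all sibling libraries, and the sibling libraries lay close to each other. The log2 fold change was -0.96 (standard error 0.77, adjusted p = 1.00 by edgeR), and -1.32 without the null library of repeat C (unadjusted p = 0.021, adjusted p = 1.00). *cacna1ba*, its paralog, had 27.9, 6.51 and 4.03 CPM in null libraries and 25.5, 8.44 and 26.6 CPM in sibling libraries, with overlapping ranges (log2 fold change -0.65, standard error 1.105). The R-type gene *cacna1ea* had 49, 53 and 0 reads in null libraries and 63, 17 and 69 reads in sibling libraries, and *cacna1eb* had 13, 0 and 1 reads in null libraries and none in sibling libraries.

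Among the L-type genes, *cacna1c*, the main L-type channel of neurons and heart, had 6.51, 0.359 and 0.403 CPM in null libraries and 11.9, 10.4 and 21.5 CPM in sibling libraries. Its reads numbered 123, 6 and 2 in null libraries, and all null libraries were below all sibling libraries. The log2 fold change was -2.57 (standard error 1.51, adjusted p = 1.00 by edgeR), and DESeq2 gave it an unadjusted p of 0.045 and an adjusted p of 0.62. With the repeat as a block, it was -3.79 by DESeq2 (unadjusted p = 0.0065, adjusted p = 0.16) and -3.93 by edgeR (unadjusted p = 0.12). By edgeR it was -5.29 without the null library of repeat A (unadjusted p = 0.015, adjusted p = 0.57). Without that of repeat C, edgeR gave -2.10 (unadjusted p = 0.14). *cacna1da*, the hair cell type in zebrafish, had 58, 125 and 11 reads in null libraries and 298, 56 and 205 reads in sibling libraries, with overlap. Hair cell markers summed to 122, 18.4 and 185 CPM in null libraries and 13.1, 17.9 and 24.5 CPM in sibling libraries. Single genes made up most of the high sums, with 875 reads of *pvalb9* in the null library of repeat C. In that of repeat A, *s100s* and *s100t* had 810 and 1030 reads. *otofa* had 169, 198 and 0 reads in null and 293, 120 and 508 in sibling libraries, and *otofb* had 221, 65 and 40, against 1, 0 and 0. The part of hair cells in the level of *cacna1da* was not tested. The skeletal muscle genes were sparse, with 6, 0 and 0 reads of *cacna1sa* in null libraries and 1, 1 and 2 in sibling libraries. *cacna1sb* had 39, 40 and 0 reads in null libraries and none in sibling libraries. Over all libraries of repeats A to C, *cacna1sb* had too few reads for the edgeR test. Once the null library of repeat C was left out, it passed the read filter through null reads alone. edgeR then gave *cacna1sb* an unadjusted p of 0.020 (adjusted p = 1.00). The muscle markers given above summed to 90.2, 14.2 and 188 CPM in null libraries and to 18.2 to 24.6 CPM in sibling libraries. Their part in the level of *cacna1sb* was not tested. The retinal gene *cacna1fb* had 1, 113 and 0 reads in null libraries and 46, 0 and 0 reads in sibling libraries. Photoreceptor markers summed to 18.3, 0 and 4.03 CPM in null and 10.9, 0.214 and 0 CPM in sibling libraries, and their part was not tested.

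T-type genes had a median log2 fold change of 0.06 over 4 tested genes. *cacna1g* had 48.2, 44.8 and 7.06 CPM in null libraries and 33.0, 25.1 and 28.5 CPM in sibling libraries. The null libraries of repeats A and B exceeded all sibling libraries and that of repeat C was under them (log2 fold change 0.21, standard error 0.88, adjusted p = 1.00 by edgeR), and the log2 fold change was 0.68 without it and -0.15 with the repeat as a block. *cacna1ha* had 6.40, 1.26 and 1.81 CPM in null libraries and 4.14, 14.3 and 13.6 CPM in sibling libraries, lower in null larvae in 2 of 3 repeats (log2 fold change -1.75, standard error 1.32, adjusted p = 1.00 by edgeR). *cacna1ia* had 16.1, 8.37 and 8.47 CPM in null libraries and 18.8, 6.43 and 9.74 CPM in sibling libraries, a difference within the spread between libraries (log2 fold change -0.09, standard error 1.04). *cacna1hb* had 27, 174 and 57 reads in null libraries and 31, 0 and 214 reads in sibling libraries.

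**Figure D3:**
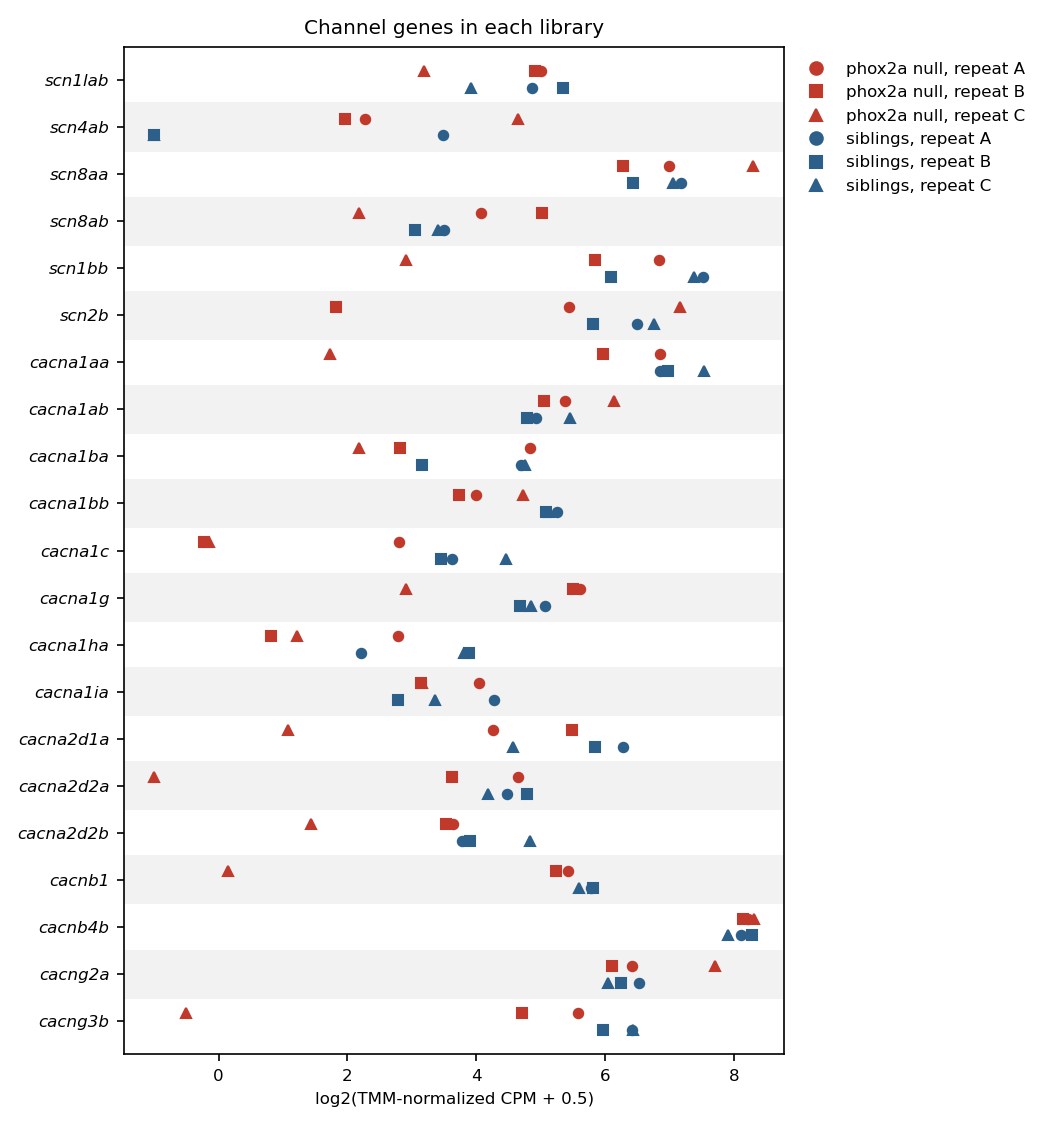
Levels of 21 channel genes, chosen by rule, as log2 of TMM-normalized CPM plus 0.5 (horizontal axis) in the null libraries (red, upper row of each gene) and the sibling libraries (blue, lower row), with a marker for each repeat. Sibling libraries of *cacna1bb* lie between 33.4 and 37.6 CPM, above all null libraries. The null library of repeat C (red triangles) is far under the others for *cacna1aa*, *cacnb1* and *cacng3b*. On this scale it is above them for *scn8aa* and *cacng2a*. By gene reads alone, *scn8aa* was at 163 CPM in it, within the sibling range of 104 to 167 CPM.

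Alpha 2 delta subunits, which are the target of gabapentin in mammals and promote channel traffic to terminals, summed to 62.8, 103 and 134 CPM in null libraries and to 143, 129 and 80.0 CPM in sibling libraries. Of the 5 tested, 4 had a negative log2 fold change. *cacna2d1a* had 18.6, 44.3 and 1.61 CPM in null libraries and 77.2, 57.0 and 23.2 CPM in sibling libraries, lower in null larvae in 3 of 3 repeats with overlapping ranges (log2 fold change -1.28, standard error 1.11, adjusted p = 1.00 by edgeR). *cacna2d2b* had 12.0, 11.1 and 2.22 CPM in null libraries and 13.2, 14.5 and 28.1 CPM in sibling libraries, so that the genotypes lay apart by a narrow gap (log2 fold change -1.13, standard error 1.08, adjusted p = 1.00 by edgeR). *cacna2d2a* had 24.6, 11.9 and 0 CPM in null libraries and 21.7, 27.2 and 17.7 CPM in sibling libraries, with overlap (log2 fold change -0.86, standard error 1.53, adjusted p = 1.00 by edgeR). *cacna2d3* was highest in 1 null library, that of repeat C, with 7.25, 35.8 and 126 CPM in null libraries and 29.1, 20.7 and 10.9 CPM in sibling libraries.

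Calcium channel beta subunits bind the pore from inside the cell and raise its surface level. All 7 were tested, 6 with a negative log2 fold change, and the median was -0.57. With the null library of repeat C left out, 4 were negative and the median was -0.30. *cacnb4b* had 5613, 4734 and 1581 reads in null libraries and 6371, 7272 and 4978 reads in sibling libraries. These are 297, 283 and 319 CPM, against 274, 311 and 239.9 CPM, and the genotypes overlapped (log2 fold change 0.12, standard error 0.44, adjusted p = 1.00 by edgeR). With gene reads alone as the scale, its log2 fold change was -0.26. *cacnb1*, known from the skeletal muscle channel and also expressed in neurons, had 42.3, 37.2 and 0.605 CPM in null libraries and 54.6, 55.9 and 48.0 CPM in sibling libraries. All null libraries were below all sibling libraries, and that of repeat C held only 3 reads (log2 fold change -0.98, standard error 1.18, adjusted p = 1.00 by edgeR). Without this library, the log2 fold change of *cacnb1* was -0.42 (unadjusted p = 0.24). *cacnb3a*, *cacnb3b* and *cacnb4a* had no read in that same null library and 90 to 310 reads in each of the other 5 libraries.

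Gamma subunits divide into those of muscle channels (*cacng1*, *cacng6*) and those that carry AMPA receptors to synapses. The 4 genes of the first kind had 2 reads in all over the 6 libraries, both of *cacng6b* in siblings. Of the 11 genes of the second kind, 8 were tested, 5 with a positive and 3 with a negative log2 fold change (median 0.35). With the null library of repeat C left out, 9 were tested, 3 positive and 6 negative, and the median was -0.07. *cacng2a*, a stargazin gene, had 84.6, 68.6 and 209 CPM in null libraries and 91.6, 75.7 and 65.6 CPM in sibling libraries, so that repeats A and B were alike in both genotypes and the null library of repeat C stood above them (log2 fold change 0.64, standard error 0.63, adjusted p = 1.00 by edgeR, and -0.03 without that library). *cacng3b* had 47.2, 25.7 and 0.202 CPM in null libraries and 85.0, 62.5 and 86.4 CPM in sibling libraries. All null libraries were below all sibling libraries, with 1 null read against 1793 sibling reads in repeat C, and the log2 fold change was -1.67 (standard error 1.29, adjusted p = 1.00 by edgeR). Without the null library of repeat C it was -1.11 (standard error 0.39, unadjusted p = 0.025, adjusted p = 1.00). *cacng8a* had 24.8, 27.1 and 179 CPM in null libraries and 30.7, 18.5 and 33.1 CPM in sibling libraries, and *cacng7b* stayed between 9.72 and 13.9 CPM in all 6 libraries.

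The channel genes not yet given with values were mostly sparse. The L-type gene *cacna1db* had 15, 9 and 0 reads in null libraries and 50, 0 and 1 reads in sibling libraries, and the T-type gene *cacna1ib* had 31, 1 and 0 reads in null libraries and none in sibling libraries. The retinal alpha 2 delta gene *cacna2d4a* had 1, 0 and 2 reads in null libraries and 21, 92 and 1 reads in sibling libraries, and its paralog *cacna2d4b* had 7, 0 and 18 reads, against 18, 122 and 0 in siblings. In each of these genes, 1 or 2 libraries held most of the reads.

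Among the beta subunits, *cacnb2a* had 13.0, 4.24 and 4.03 CPM in null libraries and 13.4, 11.6 and 6.51 CPM in sibling libraries, lower in null larvae in 3 of 3 repeats with overlap. *cacnb2b* had 30, 32 and 0 reads in null libraries and 98, 201 and 0 reads in sibling libraries. Among the AMPA receptor type gamma subunits, *cacng8b* had 16.8, 23.7 and 53.2 CPM in null libraries and 26.0, 23.1 and 14.1 CPM in sibling libraries, and *cacng5a* had 197, 0 and 0 reads in null libraries and 213, 33 and 289 reads in sibling libraries. The genotypes overlapped in all of these. *cacng7a* had 13, 14 and 0 reads in null libraries and 84, 1 and 144 in sibling libraries, and *cacng5b* had 11, 24 and 0, against 13, 0 and 0 in siblings. *cacng3a*, *cacng4a* and *cacng4b* had at most 28 reads in any library.

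In all, the genotypes lay apart for 5 of the 43 tested channel genes, *cacna1bb*, *cacna1c*, *cacna2d2b*, *cacnb1* and *cacng3b*. All 5 were lower in null larvae, which is 11.6% of the channel genes, against 7.53% of all genes tested. None was higher throughout, against 3.1% of all genes tested. Without the null library of repeat C, 3 of 47 channel genes had an unadjusted p under 0.05 by edgeR (6.38%, against 4.05% of all genes in that fit). These were *cacna1bb* and *cacng3b*, both lower, and *cacna1sb*, higher in null larvae, and 0 were called. *cacna1sb* was not among the 43 genes. It passed the read filter of this smaller fit through null reads alone, so its direction was fixed beforehand.

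The spread of single null libraries around the siblings was counted for the same genes. In repeat A, 0 channel genes were over 2-fold above the range of the 3 sibling libraries and 1 was over 2-fold below it (*cacna1bb*), 0% and 2.33% of the channel genes, beside 2.50% and 4.24% of all genes tested. In repeat B, 2 were above (*scn5lab*, *scn8ab*) and 6 below, 4.65% and 14.0%, beside 5.91% and 11.8% of all genes tested. In repeat C, 7 were above (*cacna2d3*, *cacng2a*, *cacng8a*, *cacng8b*, *scn4ab*, *scn4ba*, *scn8aa*) and 16 below, 16.3% and 37.2% of the channel genes, beside 17.0% and 43.5% of all genes tested. These counts use TMM scaling, with a factor of 0.518 for this null library. By gene reads alone, *scn8aa* was at 163 CPM there, against 167 CPM at most in siblings, and *cacng8b* at 27.6 against 30.2. *cacng2a* was at 108 against 106, *scn4ab* at 12.7 against 12.4 and *cacna2d3* at 65.3 against 33.8. *cacng8a* and *scn4ba* stayed further above, at 92.8 against 36.8 and 293 against 67.0. After TMM scaling, skin markers were at 77.5, 0.657 and 4703 CPM in null libraries and at 2899, 74.4 and 342 CPM in sibling libraries. A high sum was thus not confined to the null library of repeat C, whose value the factor of 0.518 raises. The part of skin cells in the channel levels was not tested.

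Many of these genes are paralogs kept from the genome duplication of bony fishes, and the split of reads between both copies was compared after the levels had been seen. Within a pair, the share of reads does not depend on library scaling, though counting can split reads that both copies share. Of 25 pairs with copies named a and b, 14 had at least 10 reads in every library. The genotypes lay apart in 1 pair, *cacna1aa* and *cacna1ab*, where *cacna1aa* took 73.8%, 65.5% and 3.88% of the pair's reads in null libraries, against 79.4%, 82.3% and 81.0% in sibling libraries. The mean share was 47.7 ± 38.2% in null larvae and 80.9 ± 1.46% in siblings (SD, n = 3 libraries each; exact permutation p = 0.1, two-sided, the smallest that 3 libraries against 3 allow, and 0.75 after Benjamini-Hochberg adjustment over 14 pairs). Any pair without overlap gives this smallest p, so it adds nothing to the separation itself. Without the null library of repeat C, the null mean was 69.6% (exact permutation p = 0.1, the smallest that 2 libraries against 3 allow). The pairs *scn8aa* and *scn8ab*, *scn1ba* and *scn1bb*, and *cacna1ia* and *cacna1ib* reached the same p without that library, so this was not particular to *cacna1aa* and *cacna1ab*. *scn8aa* took 88.7%, 70.7% and 98.7% of the reads of its pair with *scn8ab* in null libraries and 93.0%, 91.7% and 92.9% in sibling libraries. The null libraries of repeats A and B thus lay below all siblings and that of repeat C above them. *cacnb4b* took nearly all reads of its pair in every library, since *cacnb4a* had 4.12% at most.

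**Figure D4:**
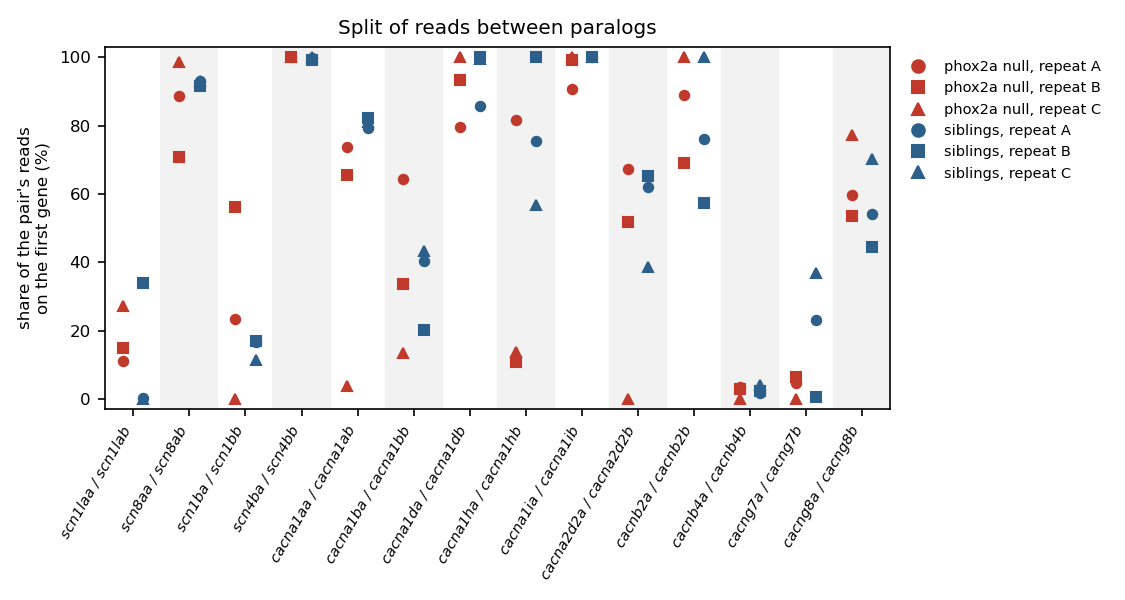
Share of a paralog pair's reads that fell on the first-named gene (vertical axis, percent) in null (red, left) and sibling (blue, right) libraries, for the 14 pairs with at least 10 reads in every library, with a marker for each repeat. The genotypes separate only for *cacna1aa* and *cacna1ab*, where siblings lie between 79.4% and 82.3%.

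Genes whose proteins anchor or modulate these channels were listed as well. Of 56 names, 45 had a row and 42 were tested, with a median log2 fold change of -0.09. By edgeR, 1 had an unadjusted p under 0.05, against 3.22% of all genes, and 0 were called. That gene was *fgf12a*, an intracellular Fgf that binds the tail of sodium channels, with 894, 1060 and 4434 reads in null libraries and 1653, 863 and 932 reads in sibling libraries. Its log2 fold change was 2.72 (unadjusted p = 0.043, adjusted p = 1.00) and 0.11 without the null library of repeat C. The genotypes lay apart for 6 of the 42 partner genes, where 10.6% of all genes tested did. *sptbn4b* (a spectrin of the axon initial segment), *fgf11b*, *unc80* (of the sodium leak channel complex), *rims1b* and *erc2* (both of the active zone) had all null libraries below all siblings. *bsnb*, a bassoon gene of the active zone, had them above, with 71.5, 78.5 and 491 CPM in null libraries and 62.7, 54.6 and 60.5 CPM in sibling libraries. *fgf11b* had 36, 28 and 0 reads in null libraries and 404, 196 and 150 reads in sibling libraries (log2 fold change -3.17, standard error 1.66, unadjusted p = 0.092, adjusted p = 1.00 by edgeR). The ankyrin G gene *ank3b* had a log2 fold change of -0.05 and *nalcn*, the sodium leak channel, one of -0.39.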

How the data were processed

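Bulk libraries of sorted hindbrain neurons were compared by genotype. The authors deposited counts, whole reads per gene and library, from reads aligned to the GRCz11 genome, to which Kaede and GFP had been added. The aligner and the counting program are not given in the sources used here. They also deposited the same counts after scaling, which were not used. The 5 rows that name no gene held 41.2% to 98.1% of a library's listed reads and entered neither library sizes nor tests.

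Columns carry a genotype and a run code but no replicate number. Genotypes were compared with edgeR 4.0.16 (filterByExpr, TMM, glmQLFit, glmQLFTest, Benjamini-Hochberg adjustment over 14824 genes). Each standard error follows from a coefficient and its F value. DESeq2 1.42.0, RLE factors, gene reads alone, other filters, a block for the repeat, inclusion of repeat D and each library left out were alternatives, in R 4.3.3. Per the labels' design text, each repeat gave both genotypes, so libraries with the same run code were taken as pairs. Their deviations from the genotype means correlated by 0.023, 0.082 and 0.051 over 14824 genes. No transcript lengths were at hand, so levels were not compared between genes.

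Members and lists were chosen with earlier results of these data known. Genes named with all values are pore subunits with a genotype mean of at least 10 CPM, genes past an unadjusted edgeR p of 0.05 or called by DESeq2, tested genes whose genotypes lay apart, the 2 auxiliary subunits of each kind with most sibling CPM, and *phox2a*. Others were named after their values were seen. Markers of microglia and macrophages summed to 0.605 to 96.5 CPM in null and 29.4 to 166 CPM in sibling libraries, and erythroid markers to 0.403 to 4.84 and 0.0857 to 0.434 CPM.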

Additional observations from a re-analysis of the deposited data

Results flagged for a closer look

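Repeat D was outside the comparison, and 2 channel genes had a higher CPM of gene reads in its null library than in any sibling library. *cacna1da* had 67 reads there, or 91.1 CPM, against 14.9 CPM at most in siblings and 0 reads in the sibling library of repeat D. *scn8ab* had 11 reads, or 15.0 CPM, against 12.6 CPM at most in siblings. This null library held 735217 gene reads, where 3 reads amount to 4.08 CPM.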

How the results depend on the processing

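edgeR called 0 of all genes tested under each of its own settings on repeats A to C, also when 1 library was left out (0 to 0). The exceptions were DESeq2 with 129 genes, DESeq2 with the repeat as a block with 289, and edgeR on all 4 repeats with 40. The number of channel genes with an unadjusted p under 0.05 was 1 with RLE factors (2.33%, beside 3.99% of all genes in that fit), 2 without the filter (3.57%, beside 5.19%), 4 by DESeq2 (7.84%, beside 5.66%), 5 by DESeq2 with the repeat as a block (8.93%, beside 6.69%), 1 on all 4 repeats (2.44%, beside 3.36%), and 0 to 3 when 1 library was left out, with 3 reached without the null library of repeat A (6.52%, beside 8.68%) or that of repeat C (6.38%, beside 4.05%). For the partner genes, it was 2 with RLE factors (4.76%), 0 with gene reads alone (beside 1.57% of all genes), 2 without the filter (4.55%), 0 by edgeR (beside 0.681%) and 2 by DESeq2 (4.55%) with the repeat as a block, and 0 to 4 when 1 library was left out, with 4 reached without the null library of repeat A (9.52%, beside 8.68% of all genes) or that of repeat B (9.30%, beside 6.31%). The median log2 fold change of the channel genes was -0.77 with gene reads alone, beside -0.36 over all genes tested. It was -0.63 by edgeR with the repeat as a block, beside -0.56 over all genes tested. Over channel genes with at least 10 reads in every library it was -0.084, and it ran from -0.54 to -0.15 when 1 library was left out. Among the 3 channel genes counted without the null library of repeat C, *cacna1sb* passed the filter through null reads alone.

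Of 287 log2 fold changes for the 21 genes named by rule, 20 had the opposite sign. *cacna1ia* was at 0.029 with RLE factors, 0.025 by DESeq2, 0.12 by DESeq2 with the block and 0.61 on all 4 repeats. *cacnb4b* was at -0.26 and *scn8aa* at -0.10 with gene reads alone. *cacna1g* was at -0.15 by edgeR and -0.037 by DESeq2 with the block, and *scn1lab* at 1.83 on all 4 repeats. When 1 library was left out, the log2 fold change ran from -0.17 to 0.68 for *cacna1g*, -0.52 to 0.41 for *cacna1ia*, -1.89 to 0.12 for *scn2b*, -0.031 to 0.90 for *cacng2a*, -0.60 to 0.12 for *scn1lab*, -0.25 to 0.86 for *scn8aa* and -0.016 to 0.22 for *cacnb4b*. The other 14 genes kept their sign throughout. By gene reads alone, the genotypes lay apart for 7 channel genes, all lower in null larvae (16.3%, beside 9.59% of all genes tested). Among them were *cacna1aa* and *scn3b*, whose ranges overlapped after TMM scaling. The cause of these shifts was not tested. With 3 libraries per genotype, standard errors of 0.44 and more on the log2 scale limit what could be called.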

Other observations

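The sibling library of repeat D, which entered no comparison, had reads on 17 of the 60 channel genes, against 42 to 50 in the other sibling libraries. Over all gene rows it had reads on 6211, against 16675 to 18409. It had a read on 39.5% of the tested channel genes, beside 37.4% of all genes tested, so the loss was not particular to channel genes. Of its listed reads, 40.5% were not aligned. The N-type gene *cacna1bb* had 5029 reads there, against 720 to 872 in siblings of repeats A to C. The L-type gene *cacna1db* had 2735 reads, against 0 to 50, and the beta subunit *scn2b* had 7616, against 1308 to 2249. *scn8aa*, *scn1bb*, *cacng2a* and *cacng3b*, with at least 1362 reads in each other sibling library, had none.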
